A study of Mus musculus with 14 samples.

Results

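Adipokines are hormones and other secreted proteins that fat cells release into the blood or the surrounding tissue. The 8 genes followed here were Lep, Retn, Cfd, Rbp4, Nampt, Apln, Rarres2 and Agt, chosen by name among the 55471 genes of the count table, and each symbol matched a single row. All 8 passed the filter on low counts, among 15949 genes tested. Their transcripts were measured by RNA sequencing in brown adipose tissue, the fat depot that burns fuel to make heat, of 10-week-old male mice. The knockout mice (AdC3KO) lack CLSTN3B, a product of the Clstn3 locus, in adipocytes, and were set against WT mice. Both genotypes spent 2 weeks at 30 °C, which is thermoneutral for mice and asks for little heat from brown fat, and some mice of each then spent 6 h at 4 °C. There were 4 AdC3KO and 4 WT libraries at 4 °C, and 3 AdC3KO and 3 WT libraries at 30 °C. The sources used here name no Cre driver for the knockout, no allele of the WT mice and no hour of dissection. Whether each library came from its own mouse is not stated in the labels, so p-values measure the spread between libraries.

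Leptin, the product of Lep, is made by adipocytes in proportion to their fat stores and acts on receptors in the brain to restrain food intake. Its gene is known to be expressed less under sympathetic stimulation and fasting, and brown fat carries far less of it than white fat. The other members are a mixed group. Resistin (Retn), retinol-binding protein 4 (Rbp4), apelin (Apln), chemerin (Rarres2) and angiotensinogen (Agt) are secreted signals, carriers or precursors. Adipsin (Cfd) is a protease that starts the alternative complement pathway, and Nampt makes the precursor of NAD inside cells and is also found outside them, where it has been called visfatin.

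Gene counts came to between 19.9 M and 29.0 M per library (M, 1e6 counts). Levels are given as CPM (counts per M) after scaling of the libraries, and between genes as CPM per kilobase of exon (RPKM). The targeted locus was checked first. Clstn3 stood at 53.9 to 77.9 CPM in AdC3KO and 970.0 to 1195 CPM in WT libraries at 4 °C, and at 14.8 to 17.3 CPM in AdC3KO and 182 to 228 CPM in WT libraries at 30 °C. The tissue carried its defining transcript, Ucp1, at means of 13730 CPM (AdC3KO) and 12690 CPM (WT) at 4 °C and of 1618 CPM (AdC3KO) and 1625 CPM (WT) at 30 °C, and none of the 8 brown adipocyte markers was at 0. Of these 8 markers, 2 rose and 3 fell at 4 °C in AdC3KO and 2 rose and 5 fell in WT (edgeR, adjusted p under 0.05), with Ucp1 and Dio2 higher and Ebf2, Zic1 and Lhx8 lower in both. Skeletal muscle transcripts were present in 5 libraries. The summed level of 11 muscle markers was 427 CPM in AdC3KO library 3 and 43.3 CPM in WT library 2 at 4 °C, 65.0 and 31.4 CPM in AdC3KO libraries 1 and 2 at 30 °C, and 185 CPM in WT library 3 at 30 °C, against 0.99 to 3.24 CPM in the rest.

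Reference sequence is shown for the 4 genes whose level changed with temperature, because it lets their start regions be set side by side. Each run is the 250 bases before a RefSeq transcription start on GRCm38.p6, read 5′ to 3′ on the strand of the gene. Capitals mark 3 short motifs where a search found them: the C/EBP palindrome TTGCGCAA, the cyclic AMP response element core TGACG (both searched on both strands) and the TATA box core TATAA (searched on the strand of the gene). Rbp4 has a pair of RefSeq starts, and the downstream window, which holds motifs, is the one shown.
Lep, chr6:29059971-29060220, plus strand: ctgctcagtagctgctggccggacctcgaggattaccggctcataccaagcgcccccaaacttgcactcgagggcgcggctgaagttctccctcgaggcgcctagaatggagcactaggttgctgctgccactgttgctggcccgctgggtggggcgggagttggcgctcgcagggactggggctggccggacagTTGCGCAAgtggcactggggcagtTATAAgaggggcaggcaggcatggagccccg
Rbp4, chr19:38124812-38125061, minus strand: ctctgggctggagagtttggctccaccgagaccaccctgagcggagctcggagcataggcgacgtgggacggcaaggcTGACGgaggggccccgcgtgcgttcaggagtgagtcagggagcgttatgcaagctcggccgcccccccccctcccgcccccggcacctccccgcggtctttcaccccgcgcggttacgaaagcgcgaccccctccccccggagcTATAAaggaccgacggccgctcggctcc
Nampt, chr12:32820085-32820334, plus strand: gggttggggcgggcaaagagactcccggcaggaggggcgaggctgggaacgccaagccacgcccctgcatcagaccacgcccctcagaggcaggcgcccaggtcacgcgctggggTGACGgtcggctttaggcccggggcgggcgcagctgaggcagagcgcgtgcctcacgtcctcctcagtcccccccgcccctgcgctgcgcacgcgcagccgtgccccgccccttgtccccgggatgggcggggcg
Apln, chrX:48034854-48035103, minus strand: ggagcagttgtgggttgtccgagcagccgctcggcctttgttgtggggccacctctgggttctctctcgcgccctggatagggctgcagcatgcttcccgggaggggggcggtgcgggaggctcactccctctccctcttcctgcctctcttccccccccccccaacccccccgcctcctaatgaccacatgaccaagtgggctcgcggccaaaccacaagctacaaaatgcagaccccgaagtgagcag

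The C/EBP palindrome lay 55 to 48 bases before the Lep start and in none of the other 7 windows of the members. It is known as a site for C/EBP proteins, the factors that drive adipocyte differentiation, and it occurred in 54 of 32851 windows of all genes, or 0.164%. A TATA core stood 31 to 27 bases before the Lep start, 28 to 24 bases before the Rbp4 start and 30 to 26 bases before the start of Agt, and was held by 16.0% of all windows. TGACG stood in the Rbp4 window, 172 to 168 bases before the start, and in the Nampt window, 135 to 131 bases before it, as in 17.8% of all windows. The full palindromic element TGACGTCA, carried by 1.55% of windows, was in no window of the members. The Apln window held none of these 3 capitalised motifs, but did hold a GC box (GGGCGG, 32.7% of windows), as did those of Lep, Rbp4 and Nampt. CACGTG, the E-box (6.02% of windows), was in none of the members' windows. Windows were found for 7 of the 8 genes. A match is a run of letters and not evidence of binding.

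On the GRCm38 annotation (GENCODE vM21), all 8 are protein-coding genes. Lep (ENSMUSG00000059201) lies on chromosome 6 from 29060220 to 29073877 on the plus strand, and Rarres2 lies on the same chromosome from 48569696 to 48572789 on the minus strand. Retn is on chromosome 8 from 3655770 to 3660110 (plus) and Agt on chromosome 8 from 124556534 to 124569706 (minus). Cfd is on chromosome 10 from 79890853 to 79892655 (plus), Nampt on chromosome 12 from 32819545 to 32853349 (plus), Rbp4 on chromosome 19 from 38116629 to 38125281 (minus) and Apln on chromosome X from 48025146 to 48034853 (minus). Exons of Rarres2 share 892 bp with Lrrc61 on the opposite strand, so its counts are uncertain, and the strand setting used for counting is not given in the sources used here. Exons of the other 7 genes overlap no annotated gene.

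At 4 °C the leptin transcript was nearly gone from brown fat of both genotypes, while Apln, Rbp4 and Nampt were higher. Of the 8 genes, 3 rose and 1 fell in AdC3KO, and the same 3 rose and the same 1 fell in WT. Retn, Cfd, Rarres2 and Agt did not pass the test in either genotype. These counts stand against a temperature difference that touched most of the transcriptome. In AdC3KO 31.0% of all tested genes were called higher and 32.1% lower, and in WT 30.6% were called higher and 30.8% lower. The groups did not overlap for 4 of the 8 members in each genotype, against 64.1% of all tested genes in AdC3KO and 60.3% in WT. The share of members called was thus near the background. Upper-quartile scaling, which lowered the median over all genes to -0.289 in AdC3KO and -0.268 in WT, moved the split of calls over all genes to 3737 higher and 6542 lower in AdC3KO and to 3640 higher and 6415 lower in WT. With the scaling used here, the split was 4937 higher and 5113 lower in AdC3KO and 4879 higher and 4908 lower in WT. The median log2 fold change of the 8 was 0.34 in AdC3KO and 0.37 in WT, beside -0.06 and -0.03 over all tested genes. An adjusted p comes from the quasi-likelihood F-test of edgeR with Benjamini-Hochberg adjustment across the 15949 genes, unless DESeq2 is named, and a call means an adjusted p under 0.05.

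**Figure D1:**
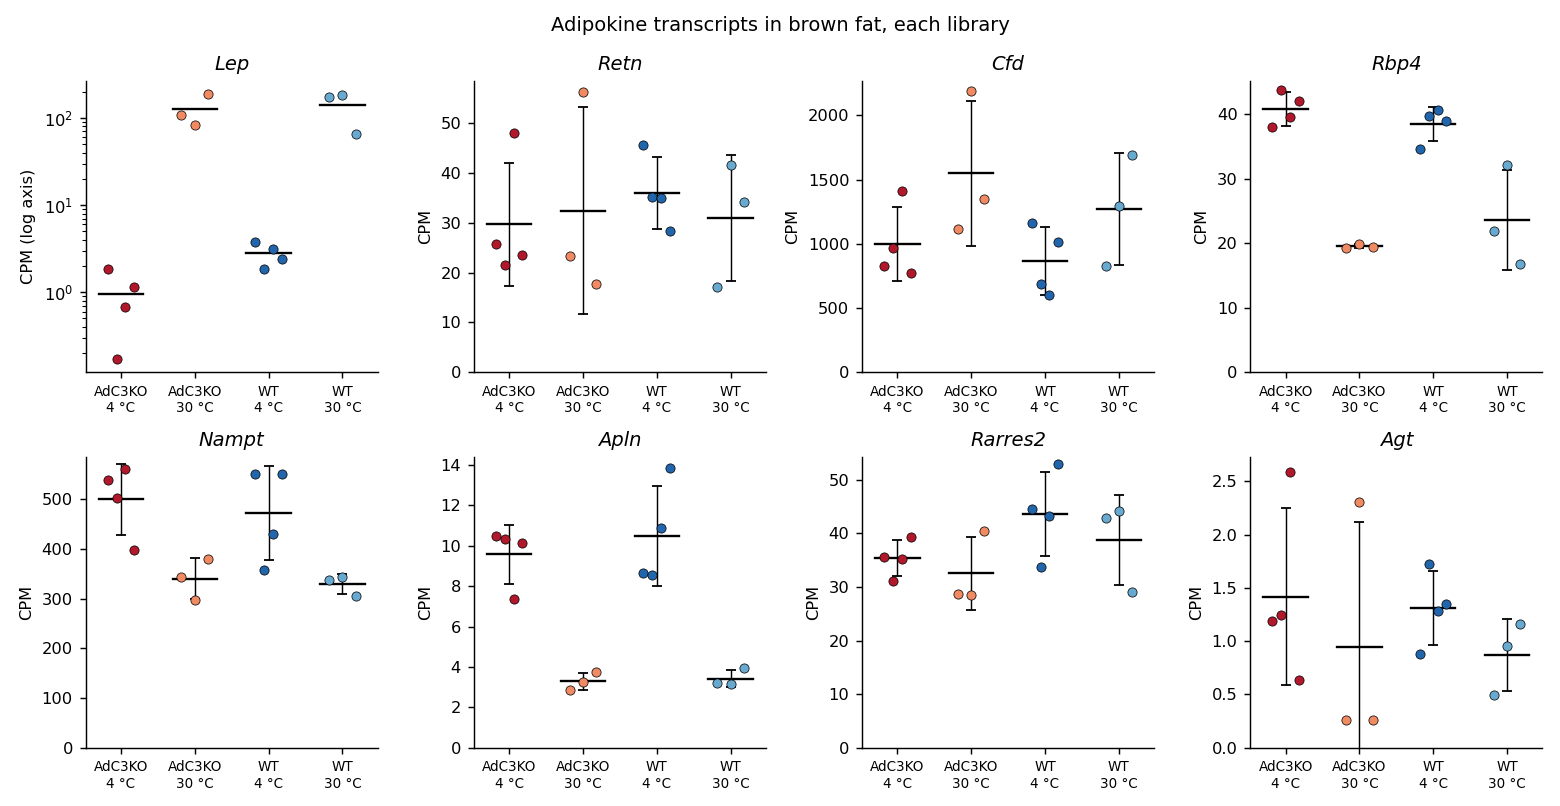
Level of each adipokine transcript (CPM, log axis for Lep and linear axes from 0 for the rest) in each library of the 4 groups, with AdC3KO at the left of each panel; points are libraries, horizontal bars are group means and whiskers are SD, drawn on the linear panels. The 8 libraries at 4 °C lie at 3.77 CPM or below for Lep, whereas the 6 libraries at 30 °C lie at 64.8 CPM or above, and for Apln, Rbp4 and Nampt each 4 °C group lies above its own 30 °C group.

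Leptin gave the most pronounced change. In AdC3KO libraries 1 to 4 at 4 °C, Lep stood at 1.86, 0.172, 0.684 and 1.14 CPM, from only 50, 4, 14 and 27 counts. In AdC3KO libraries 1 to 3 at 30 °C it stood at 108, 83.2 and 187 CPM, from 3292, 2236 and 5071 counts. The lowest value at 30 °C was thus far above the highest at 4 °C, and the groups did not overlap. Means were 0.965 ± 0.718 CPM at 4 °C (SD, n = 4) and 126 ± 54.4 CPM at 30 °C (SD, n = 3) in AdC3KO. The log2 fold change was -6.98 (SE 0.59, 95% interval -8.27 to -5.68, adjusted p = 1.155e-06), a fitted 126-fold fall.

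WT brown fat showed the same direction. Lep had 3.77, 1.83, 3.13 and 2.41 CPM in WT libraries 1 to 4 at 4 °C, against 176, 185 and 64.8 CPM in WT libraries 1 to 3 at 30 °C. Again no value at 4 °C came near any value at 30 °C. The log2 fold change was -5.68 (SE 0.53, 95% interval -6.86 to -4.50, adjusted p = 3.124e-06), a fitted 51.3-fold fall. Ordered from the lowest log2 fold change, Lep was number 11 of 15949 tested genes in AdC3KO and number 45 in WT. In whole tissue, fewer cells that make a transcript and less of it per cell cannot be told apart. Markers shared by all adipocytes moved in both directions. Of 7, all tested, 3 rose and 2 fell in AdC3KO and 4 rose and 1 fell in WT. Adipoq fell in both genotypes and Lipe in AdC3KO. The median log2 fold change was 0.08 in AdC3KO and 0.47 in WT. Upper-quartile scaling gave 3 higher and 2 lower in each genotype. At 4 °C the summed level of the 7 ran from 14190 to 19240 CPM in AdC3KO and 13810 to 21840 CPM in WT. At 30 °C it ran from 8926 to 11190 CPM in AdC3KO and 9337 to 10700 CPM in WT. Most of it was Fabp4, at means of 10160 CPM (AdC3KO) and 10530 CPM (WT) at 4 °C and 5386 CPM (AdC3KO) and 5445 CPM (WT) at 30 °C. None of the 7 was at 0. Of 8 markers of white adipocytes, 4 passed the filter on low counts. Among these, Npr3 rose in both genotypes, Mest fell in both and Nnat fell in AdC3KO, with a median log2 fold change of -1.07 in AdC3KO and -0.38 in WT. The calls of Mest in both genotypes and of Nnat were lost without the libraries that hold muscle transcripts. That setting left only library 3 of AdC3KO at 30 °C. Hoxc8 was tested but not called, at -1.18 in AdC3KO and -1.49 in WT. The rest lay below the filter. Wt1 and Tcf21, on only 46 and 24 counts over all libraries, had none at 4 °C. At 30 °C the Wt1 means were 0.473 CPM (AdC3KO) and 0.0766 CPM (WT), and those of Tcf21 0.232 CPM (AdC3KO) and 0.0685 CPM (WT). Hoxc9, on 9 counts, was at 0.0201 CPM at 4 °C and 0.0247 CPM at 30 °C in AdC3KO. In WT it was higher at 4 °C, at 0.0408 CPM beside 0.0133 CPM at 30 °C. Hoxc10 had 1 count. The summed level of the 8 was 1033 to 1231 CPM in AdC3KO and 766 to 1320 CPM in WT at 4 °C, and 183 to 232 CPM in AdC3KO and 158.5 to 274 CPM in WT at 30 °C, most of it Npr3. The part of white adipocyte RNA in the Lep difference was not tested.

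Per length, Lep stood near the bottom of the 8 genes at 4 °C and near the top at 30 °C. At 4 °C it had the lowest mean level of the 8 in AdC3KO, at 0.288 RPKM, and the second lowest in WT, at 0.831 RPKM, where Agt was at 0.693 RPKM. At 30 °C it ranked below only Cfd and Nampt in both genotypes, with 37.6 RPKM in AdC3KO and 42.4 RPKM in WT. Cfd was the most abundant of the 8 throughout. Its means were 1081 RPKM in AdC3KO and 939.5 RPKM in WT at 4 °C, and 1682 RPKM in AdC3KO and 1379 RPKM in WT at 30 °C. Nampt came next at 98.9 RPKM in AdC3KO and 93.5 RPKM in WT at 4 °C, and at 67.2 RPKM in AdC3KO and 65.1 RPKM in WT at 30 °C. Apln and Agt stayed at the low end, with group means of 1.04 to 3.33 RPKM for Apln and 0.461 to 0.749 RPKM for Agt.

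Apelin is a peptide that acts on blood vessels and adipocytes through a G protein-coupled receptor. Apln stood at 10.5, 10.3, 7.38 and 10.1 CPM in AdC3KO libraries at 4 °C and at 2.88, 3.24 and 3.73 CPM in AdC3KO libraries at 30 °C. In WT it stood at 8.66, 8.54, 10.9 and 13.9 CPM at 4 °C and at 3.19, 3.15 and 3.94 CPM at 30 °C. In both genotypes every library at 4 °C was above every library at 30 °C. The log2 fold change was 1.55 in AdC3KO (SE 0.20, adjusted p = 5.129e-06) and 1.61 in WT (SE 0.20, adjusted p = 3.581e-06), or 2.92-fold and 3.06-fold. Endothelial cells are another known source of apelin. Of 9 endothelial markers, 5 rose and 3 fell in AdC3KO, and 5 rose and 4 fell in WT. Their summed level was 1450 to 1753 CPM in AdC3KO and 1390 to 1519 CPM in WT at 4 °C, and 776 to 865 CPM in AdC3KO and 736.5 to 1003 CPM in WT at 30 °C. None was at 0, and their part in the Apln difference was not tested.

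Retinol-binding protein 4 carries retinol in the blood and is released by liver and fat. Rbp4 had 38.0, 43.7, 39.5 and 42.0 CPM in AdC3KO libraries at 4 °C, against 19.3, 19.9 and 19.4 CPM in AdC3KO libraries at 30 °C. Both of these groups were tight, and they lay far apart. WT libraries had 34.7, 39.7, 40.6 and 39.0 CPM at 4 °C and 21.8, 32.1 and 16.8 CPM at 30 °C, where library 2 came close to the lowest library at 4 °C without reaching it. Rbp4 rose 2.09-fold in AdC3KO (1.06 on the log2 scale, SE 0.16, adjusted p = 1.913e-05) and 1.63-fold in WT (0.71 on the log2 scale, SE 0.15, adjusted p = 0.0008613).

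Nampt catalyses the rate-limiting step that turns nicotinamide into NAD. It had 538, 503, 560 and 397 CPM in AdC3KO libraries at 4 °C and 342.5, 297 and 379 CPM in AdC3KO libraries at 30 °C. WT libraries had 551, 358, 431 and 549.7 CPM at 4 °C and 337.5, 343 and 306 CPM at 30 °C. The groups did not overlap, but the lowest library at 4 °C stood close to the highest at 30 °C in both genotypes. The rise was 1.47-fold in AdC3KO (0.56 on the log2 scale, SE 0.15, adjusted p = 0.004333) and 1.44-fold in WT (0.52 on the log2 scale, SE 0.15, adjusted p = 0.006937). Of the 4 calls it is the one that some alternative ended. Upper-quartile scaling gave 0.32 in AdC3KO (adjusted p = 0.06924) and 0.28 in WT (adjusted p = 0.118). Without the 5 libraries that hold muscle transcripts the AdC3KO value was 0.34 (adjusted p = 0.203), with a single AdC3KO library left at 30 °C that was assumed to vary like the others. Over 23 alternatives the adjusted p of Nampt ran from 0.0004185 to 0.203 in AdC3KO and from 0.0009304 to 0.118 in WT.

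Adipsin did not pass the test, though its estimates were below 0 in both genotypes. Cfd stood at 830.3, 967, 1414 and 775 CPM in AdC3KO libraries at 4 °C and at 1114, 2189 and 1351 CPM in AdC3KO libraries at 30 °C. It stood at 1161, 689, 599.8 and 1015 CPM in WT libraries at 4 °C and at 825, 1296 and 1694 CPM in WT libraries at 30 °C. The groups overlapped in both genotypes. The log2 fold change was -0.64 in AdC3KO (SE 0.32, 95% interval -1.33 to 0.06, adjusted p = 0.1002) and -0.55 in WT (SE 0.32, 95% interval -1.25 to 0.14, adjusted p = 0.1538). Without library 3 at 4 °C, Cfd was called lower in AdC3KO, at -0.84 (adjusted p = 0.03724). Upper-quartile scaling also called Cfd lower, with -0.88 in AdC3KO (adjusted p = 0.02865) and -0.79 in WT (adjusted p = 0.04502). Over 23 alternatives its adjusted p ran from 0.02865 to 0.4538 in AdC3KO and from 0.04502 to 0.5847 in WT.

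Resistin, a hormone of mouse adipocytes named for its link to insulin resistance, varied more within groups than between them. Retn had 25.7, 21.6, 48.1 and 23.4 CPM in AdC3KO libraries at 4 °C and 23.3, 56.3 and 17.8 CPM in AdC3KO libraries at 30 °C. It had 45.7, 35.1, 34.9 and 28.3 CPM in WT libraries at 4 °C and 17.1, 41.7 and 34.2 CPM in WT libraries at 30 °C. No order of the groups could be read from these values. The log2 fold change was -0.13 in AdC3KO (95% interval -1.08 to 0.83, adjusted p = 0.8119) and 0.21 in WT (95% interval -0.75 to 1.18, adjusted p = 0.6961).

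Chemerin, an attractant for immune cells and an adipocyte signal, was at a near-even level in all 4 groups. Rarres2 ranged from 31.1 to 39.4 CPM in AdC3KO and 33.6 to 52.9 CPM in WT at 4 °C, and from 28.5 to 40.5 CPM in AdC3KO and 29.0 to 44.1 CPM in WT at 30 °C. Its log2 fold change was 0.12 in AdC3KO (95% interval -0.25 to 0.49, adjusted p = 0.5611) and 0.17 in WT (95% interval -0.19 to 0.54, adjusted p = 0.4003). Those intervals leave room for a change of less than 1 log2 unit in either direction. Its sign turned negative under upper-quartile scaling in both genotypes.

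Angiotensinogen, the precursor of angiotensin peptides, was scarce in brown fat. Agt had 1.19, 1.25, 2.59 and 0.632 CPM in AdC3KO libraries at 4 °C and 0.262, 2.31 and 0.258 CPM in AdC3KO libraries at 30 °C. A single AdC3KO library at 30 °C, number 2, thus held 62 of the 77 counts of its group. In WT it had 0.884, 1.73, 1.28 and 1.345 CPM at 4 °C and 0.497, 0.958 and 1.16 CPM at 30 °C. The log2 fold change was 0.59 in AdC3KO (SE 0.66, adjusted p = 0.4583) and 0.58 in WT (SE 0.67, adjusted p = 0.4734). Without AdC3KO library 2 at 30 °C, the AdC3KO value became 2.41 (adjusted p = 0.002488). Over 22 alternatives its adjusted p in AdC3KO ran up to 0.8754.

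**Figure D2:**
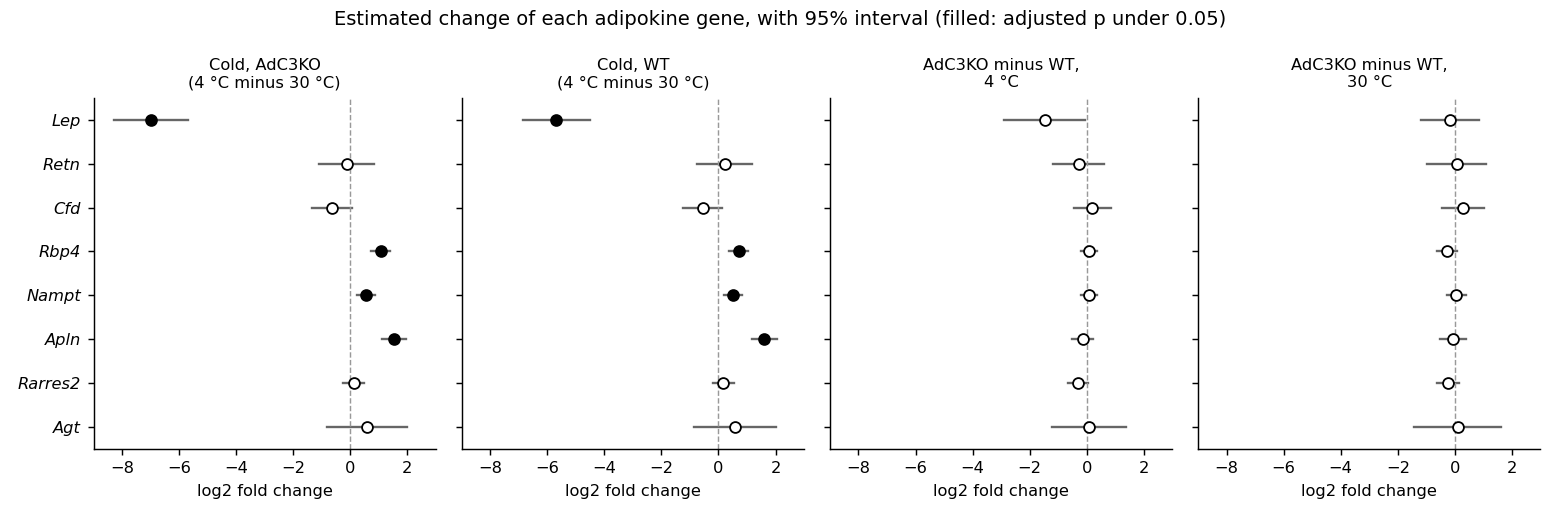
Estimated log2 fold change of each of the 8 genes with its 95% interval, in 4 panels: 4 °C minus 30 °C in AdC3KO, the same in WT, AdC3KO minus WT at 4 °C and AdC3KO minus WT at 30 °C; filled points have an adjusted p under 0.05 and open points do not. Lep at -6.98 and -5.68, and Rbp4, Nampt and Apln between 0.52 and 1.61, are filled in both temperature panels, and every point in the genotype panels is open.

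Loss of CLSTN3B in adipocytes was next compared at each temperature. None of the 8 genes was called between AdC3KO and WT at either temperature, by edgeR or by DESeq2. The background was as low, with 0.0502% of all tested genes (8 genes) called at 4 °C and 0.0439% (7 genes) at 30 °C. At an unadjusted p under 0.05 there was 1 member at 4 °C, Lep, and there were 0 at 30 °C. Among all 15949 tested genes, 765 were under that threshold at 4 °C and 212 at 30 °C. DESeq2 called 21 genes at 4 °C and 8 at 30 °C.

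The largest estimated genotype difference among the 8 was that of Lep in the cold. It averaged 0.965 ± 0.718 CPM in AdC3KO mice and 2.79 ± 0.845 CPM in WT at 4 °C (SD, n = 4 each), from 95 counts in the AdC3KO group and 224 in the WT group. The groups overlapped, since the highest AdC3KO library had 1.86 CPM and the lowest WT library 1.83 CPM. The log2 fold change of AdC3KO over WT was -1.47 (SE 0.64, 95% interval -2.88 to -0.06), with an unadjusted p of 0.04291 and an adjusted p of 0.9625 by edgeR. At 30 °C the Lep means were 126 ± 54.4 CPM in AdC3KO mice and 142 ± 67.1 CPM in WT (SD, n = 3 each), a log2 fold change of -0.17 (95% interval -1.19 to 0.85). The test of the difference between the temperature responses gave -1.30 for AdC3KO minus WT (SE 0.79, 95% interval -3.04 to 0.45, unadjusted p = 0.1311, adjusted p = 0.9999). So the fitted 126-fold fall in AdC3KO and the 51.3-fold fall in WT were not shown to differ.

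For the other 7 genes the intervals bound the genotype difference unevenly. Nampt was held most closely, at 0.08 (95% interval -0.21 to 0.37) at 4 °C and 0.05 (95% interval -0.29 to 0.39) at 30 °C. Rbp4 was at 0.08 (95% interval -0.21 to 0.38) at 4 °C and -0.27 (95% interval -0.62 to 0.07) at 30 °C, and Apln at -0.13 (95% interval -0.50 to 0.24) and -0.07 (95% interval -0.52 to 0.38). Rarres2 was at -0.30 (95% interval -0.64 to 0.04) at 4 °C and -0.25 (95% interval -0.64 to 0.14) at 30 °C. Cfd reached from -0.45 to 0.85 at 4 °C and from -0.46 to 1.04 at 30 °C. The intervals of Retn (-1.17 to 0.61 at 4 °C) and Agt (-1.20 to 1.39 at 4 °C) were wide enough to hold a change of more than 1 log2 unit. No member was called in the genotype by temperature comparison by edgeR or DESeq2, 0 passed at an unadjusted p under 0.05, and the background there was 0.0% of genes by edgeR, with 349 genes at an unadjusted p under 0.05. The estimates of the other 7 lay between -0.34 (Retn) and 0.36 (Rbp4), and that of Rbp4 was 0.067 without WT library 2 at 30 °C.

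The order of the groups followed temperature for the 4 called genes. Lep was lowest in AdC3KO at 4 °C (0.965 CPM), followed by WT at 4 °C (2.79 CPM), AdC3KO at 30 °C (126 CPM) and WT at 30 °C (142 CPM). Rbp4 and Nampt were highest in AdC3KO at 4 °C, with means of 40.8 and 499.6 CPM, just ahead of WT at 4 °C with 38.5 and 472 CPM. Apln was highest in WT at 4 °C, at 10.5 ± 2.49 CPM (SD, n = 4), beside 9.58 ± 1.47 CPM in AdC3KO at 4 °C (SD, n = 4). In each of these orders the neighbours of the same temperature did not pass the test, while the step between the temperatures did within each genotype. For Retn, Cfd, Rarres2 and Agt no pair of groups that shared a genotype or a temperature passed it, and neighbours that differed in both were not tested.

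Libraries of a group differed by a good deal more for some members than for others. The biological coefficient of variation that edgeR fitted placed Agt at percentile 96.7 of all tested genes, Lep at 95.1, Retn at 87.4 and Cfd at 74.4. Retn, Cfd and Agt were highest in the same library of their group in AdC3KO at both temperatures, library 3 at 4 °C and library 2 at 30 °C. Both are among the libraries that hold muscle transcripts, with 427 and 31.4 CPM summed over the 11 markers. AdC3KO library 1 at 30 °C held more, 65.0 CPM, and had all 3 genes below their group means. The summed level of 8 fibroblast markers was highest in those same libraries, at 1178 CPM (range of its group 830 to 1178 CPM) and 1264 CPM (761 to 1264 CPM). In the WT groups it was highest in library 1 at 4 °C (1232 CPM, range 982 to 1232 CPM) and library 3 at 30 °C (1235 CPM, range 931 to 1235 CPM), where Cfd was highest too. Of the 8 fibroblast markers, none of them at 0, 0 rose and 1 fell in the cold in AdC3KO, and 1 rose and 1 fell in WT. At 4 °C the sum of markers shared by all adipocytes also peaked in AdC3KO library 3 (19240 CPM) and WT library 1 (21840 CPM). At 30 °C it peaked elsewhere, in AdC3KO library 3 (11190 CPM) and WT library 2 (10700 CPM). In the WT groups Retn, Cfd and Agt did not share a highest library. At 30 °C Lep was lowest in library 2 of AdC3KO and library 3 of WT, which held 31.4 and 185 CPM of muscle markers. AdC3KO library 1 held more muscle signal than library 2, 65.0 CPM, yet had more Lep, at 108 CPM beside 83.2 CPM. The part of muscle, fibroblast and adipocyte RNA in these deviations was not tested. Without the 5 libraries, Lep, Rbp4 and Apln were still called in AdC3KO, and Lep, Rbp4, Nampt and Apln in WT.

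**Figure D3:**
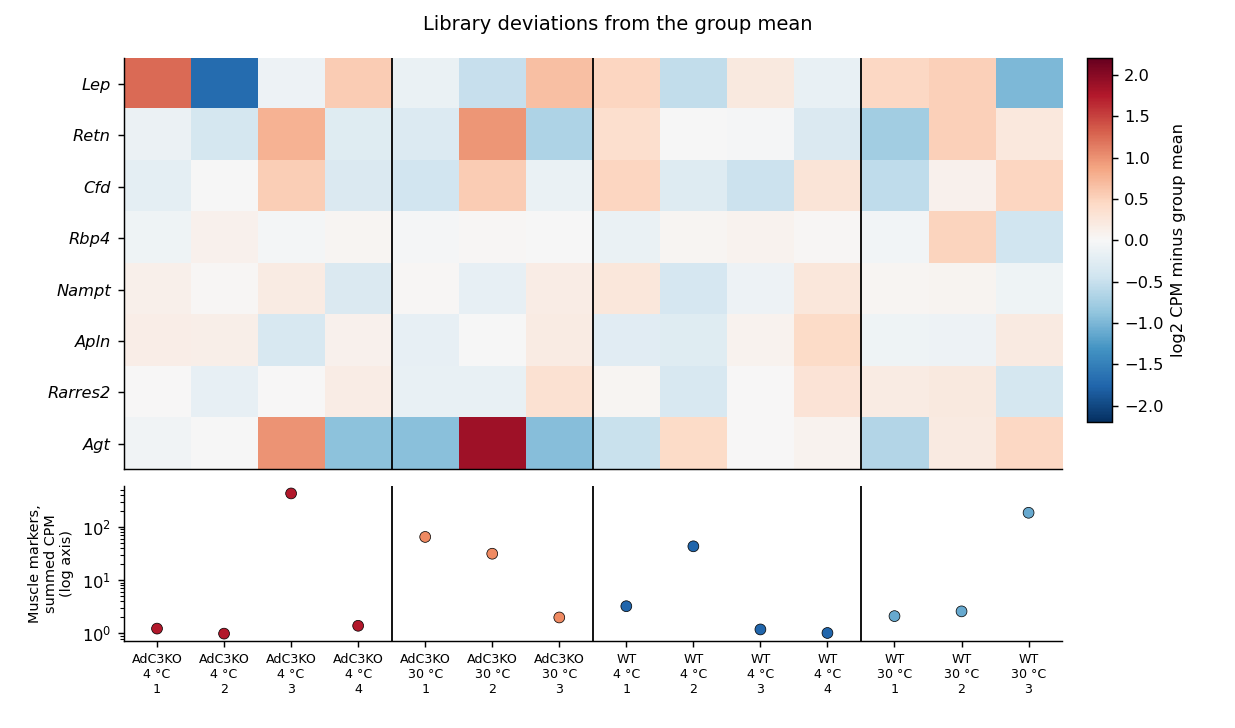
Deviation of each library from its group mean on the log2 CPM scale for the 8 genes (upper panel, red above and blue below the mean), with the summed CPM of 11 skeletal muscle markers in the same libraries (lower panel, log axis); libraries are ordered AdC3KO at 4 °C and 30 °C, then WT at 4 °C and 30 °C, with lines between groups. Retn, Cfd and Agt are red together in library 3 of AdC3KO at 4 °C and library 2 of AdC3KO at 30 °C. Rbp4, Nampt, Apln and Rarres2 are pale nearly throughout.

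The genes whose pattern lay nearest to that of Lep were found by the root-mean-square difference of centred log2 CPM over the 14 libraries, among 12761 genes averaging at least 1 CPM. They were Aplnr (0.951 log2 units), Klhdc7a (1.01), A530020G20Rik (1.07), Hcar1 (1.08) and Gdf5 (1.20). Aplnr encodes the apelin receptor, and Hcar1 the lactate receptor of adipocytes, which restrains lipolysis. Aplnr averaged 0.814 CPM in AdC3KO mice and 0.9999 CPM in WT at 4 °C, against 51.2 CPM in AdC3KO mice and 52.5 CPM in WT at 30 °C. The receptor was thus low in the same libraries in which its ligand Apln was high. Hcar1 averaged 0.564 CPM in AdC3KO mice and 1.33 CPM in WT at 4 °C, against 41.9 CPM in AdC3KO mice and 39.9 CPM in WT at 30 °C. Likeness here describes 14 libraries split mainly by temperature and carries no test.

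**Figure D4:**
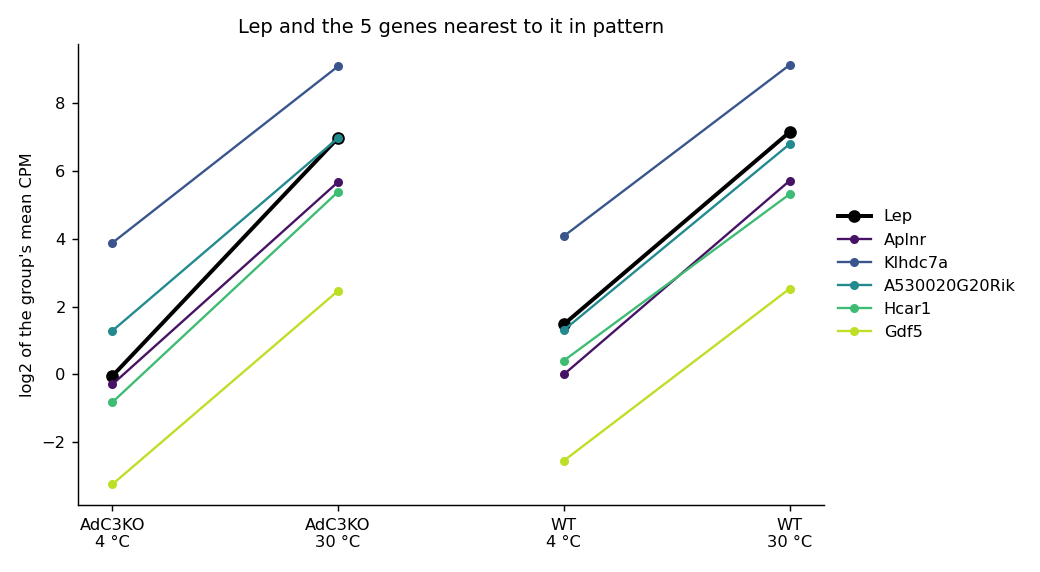
log2 of the mean CPM in each of the 4 groups for Lep (black) and the 5 genes nearest to it in pattern (coloured), with lines joining the 4 °C and 30 °C groups of a genotype. All 6 genes are lower at 4 °C than at 30 °C in both genotypes, and Klhdc7a is the most abundant of them by CPM.

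Genes that receive or pass on adipokine signals were counted from lists chosen with earlier results of these data known. Over all tested genes 63.0% were called in AdC3KO in the cold and 61.4% in WT. The called share was 33.3% in AdC3KO and 53.3% in WT for adipokine receptors, 27.8% and 50.0% for complement, and 64.7% and 47.1% for the renin-angiotensin system. It was 65.4% in AdC3KO and 73.1% in WT for other adipokines, 69.2% and 76.9% for retinoid handling, and 72.2% and 77.8% for NAD metabolism. Leptin signalling had 83.3% and the regulators of the Lep gene 81.8% in each genotype. These shares are descriptions of lists of 11 to 26 tested genes, and none was tested against the share over all genes.

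Of 15 tested adipokine receptors, 3 rose and 2 fell in AdC3KO in the cold, and 5 rose and 3 fell in WT. Upper-quartile scaling gave 2 higher and 3 lower in AdC3KO and 3 higher and 3 lower in WT. The median log2 fold change was 0.08 in AdC3KO and 0.15 in WT. The 2 that fell in both were Aplnr (-5.96 in AdC3KO, -5.68 in WT) and Mas1, a receptor for an angiotensin fragment (-4.55 in AdC3KO, -3.47 in WT, on 193 counts in all libraries together). Tlr4, a lipopolysaccharide receptor to which resistin has been reported to bind, rose by 0.92 in AdC3KO and 0.96 in WT. C5ar1, a receptor for complement fragment C5a, rose by 0.87 in AdC3KO and 0.98 in WT. C5ar2, the second receptor for C5a, rose by 1.31 in WT, and its value in AdC3KO, 0.19, did not pass. The leptin receptor Lepr was scarce, at 0.295 CPM in AdC3KO mice and 0.184 CPM in WT at 4 °C and 0.494 CPM in AdC3KO mice and 0.310 CPM in WT at 30 °C, and was not called; it was named after its values were seen.

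Of 12 tested genes of leptin signalling, Lepr among them, 8 rose and 2 fell in each genotype. The median log2 fold change was 0.61 in AdC3KO and 0.59 in WT. Apart from Lepr, the genes are shared with insulin, growth hormone and cytokine signalling. Irs2, an adaptor of insulin and leptin signalling, rose by 3.27 in AdC3KO and 3.62 in WT, and Irs1 by 1.44 in AdC3KO and 1.20 in WT. Ptpn2, a phosphatase that dampens JAK-STAT signals, rose by 1.45 in AdC3KO and 1.36 in WT. Stat5a, a transcription factor of the same pathway, fell by 3.13 in AdC3KO and 2.86 in WT. Socs3, a feedback inhibitor that leptin induces, was not called (0.80 in AdC3KO, 0.60 in WT) and was named after its values were seen.

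Factors known to act on the Lep gene or on the adrenergic signal to it moved in both directions. Of 11 tested, 7 rose and 2 fell in each genotype, with a median log2 fold change of 0.85 in AdC3KO and 0.89 in WT. Cebpa, the C/EBP protein of mature adipocytes, averaged 100.3 CPM in AdC3KO mice and 142 CPM in WT at 4 °C, against 648 CPM in AdC3KO mice and 665 CPM in WT at 30 °C. It fell by 2.69 on the log2 scale in AdC3KO and by 2.23 in WT. Srebf1, a factor for lipogenic genes, fell by 3.25 in AdC3KO and by 3.30 in WT. Cebpb rose by 2.94 in AdC3KO and 2.72 in WT, and Cebpd by 2.25 in AdC3KO and 2.30 in WT. Fosl2, an AP-1 subunit, rose by 2.32 in AdC3KO and 2.08 in WT. The C/EBP palindrome in the Lep window is a sequence that more than 1 of these proteins can bind, and binding was not measured.

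The other listed adipokines also moved in both directions. Of 26 tested, 9 rose and 8 fell in AdC3KO and 11 rose and 8 fell in WT, with median log2 fold changes of 0.11 in AdC3KO and 0.52 in WT. Upper-quartile scaling gave 7 higher and 9 lower in AdC3KO and 8 of each in WT. Fgf21, a hormone of fasting and heat production, rose by 8.34 in AdC3KO and 8.18 in WT. Gdf15, a stress cytokine, rose by 5.05 in AdC3KO and 6.23 in WT. Grem1, a BMP antagonist, rose by 4.18 in AdC3KO and 4.76 in WT from a level of 0.0246 CPM in AdC3KO mice and 0.0117 CPM in WT at 30 °C. Adiponectin, named here after its values were seen, fell far less than leptin. Adiponectin RNA (Adipoq) averaged 694 CPM in AdC3KO mice and 649 CPM in WT at 4 °C, against 1045 CPM in AdC3KO mice and 1014 CPM in WT at 30 °C. That is a log2 fold change of -0.59 in AdC3KO (adjusted p = 0.02167) and -0.64 in WT (adjusted p = 0.01395).

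The pathways that the members belong to were counted the same way. Around Cfd, 4 of 18 tested complement genes rose and 1 fell in AdC3KO, and 7 rose and 2 fell in WT. Upper-quartile scaling changed the split to 1 higher and 2 lower in AdC3KO and to 4 higher and 2 lower in WT. Cfi, the protease that inactivates C3b, rose by 2.35 in AdC3KO and 1.95 in WT. Cd46, listed as a complement regulator, fell by 1.43 in AdC3KO and 1.35 in WT. C1qb, a subunit of C1q made mainly by macrophages, rose by 0.78 in AdC3KO and 1.33 in WT. Under upper-quartile scaling its AdC3KO value was 0.55 and not called. Masp2, a protease of the lectin pathway, fell by 1.95 in WT on 84 counts in all libraries together, and stood at 0.066 in AdC3KO, where it was not called. Macrophage markers moved with these genes: 5 of 10 rose in AdC3KO and 7 of 10 in WT, and none fell or was at 0. Upper-quartile scaling called 3 higher in AdC3KO and 4 in WT. An alternative left out AdC3KO library 1 and WT library 4 at 4 °C, picked for high interferon genes and not for these markers. There 5 markers rose and 1 fell in AdC3KO, and 7 rose in WT. Their summed level at 4 °C was 433 CPM in AdC3KO library 1 and 258 to 272 CPM in the other AdC3KO libraries, and 636.5 CPM in WT library 4 and 314 to 345 CPM in the other WT libraries. It was 175 to 259 CPM in AdC3KO and 179.9 to 208 CPM in WT at 30 °C. Of these markers, C1qa, C1qb and C1qc are on the complement list too, and the part of macrophage RNA was not tested.

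Around Agt, 5 of 17 tested genes of the renin-angiotensin system rose and 6 fell in AdC3KO, and 5 rose and 3 fell in WT. With upper-quartile scaling there were 2 higher and 7 lower in AdC3KO and 3 higher and 5 lower in WT. Atp6ap2, the prorenin receptor and a proton pump subunit, rose by 1.31 in AdC3KO and 1.26 in WT. Rnpep, an aminopeptidase, fell by 1.35 in AdC3KO and 1.18 in WT. Anpep, another aminopeptidase, fell by 1.15 in AdC3KO and stood at 0.17 in WT, where it was not called, and Prep, a prolyl endopeptidase, rose by 0.64 in AdC3KO and 0.71 in WT. Mas1, described with the receptors, had the largest change of the list. Around Rbp4, 2 of 13 tested genes of retinoid handling rose and 7 fell in AdC3KO, and 2 rose and 8 fell in WT, with a median of -0.72 in AdC3KO and -0.51 in WT. Rbp7, a retinol-binding protein of the cell interior, rose by 4.70 in AdC3KO and 4.79 in WT. Rarg, a retinoic acid receptor, fell by 2.15 in AdC3KO and 2.10 in WT, and Rdh10, which oxidises retinol, fell by 1.60 in AdC3KO and 1.71 in WT. Cyp26b1, which breaks down retinoic acid, fell by 1.94 in AdC3KO and 2.25 in WT. Rbp4 thus rose while most called genes of retinoid handling fell.

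Around Nampt, 4 of 18 tested genes of NAD metabolism rose and 9 fell in AdC3KO, and 5 rose and 9 fell in WT, with a median of -0.45 in AdC3KO and -0.42 in WT. Naprt, which starts NAD synthesis from nicotinic acid in place of nicotinamide, fell by 2.07 in AdC3KO and 1.98 in WT. Nnmt, which methylates nicotinamide and so removes the substrate of Nampt, rose by 2.92 in AdC3KO and 3.35 in WT. Slc25a51, the carrier of NAD into mitochondria, rose by 1.47 in AdC3KO and 1.62 in WT. Bst1, an enzyme that consumes NAD, rose by 2.29 in AdC3KO and 2.03 in WT. Qprt, which makes NAD precursors from quinolinate, fell by 2.15 in AdC3KO on 106 counts in all libraries together, and was at -0.052 and not called in WT.

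Some calls of the genes named from these lists depended on the setting. Upper-quartile scaling ended the AdC3KO calls of C5ar1 and C1qb and the WT call of C5ar2. Leaving out the libraries that hold muscle transcripts ended the AdC3KO calls of Grem1, Cfi, C1qb, Anpep, Prep and Qprt and of the brown adipocyte markers Zic1 and Lhx8, and the WT calls of C5ar2, Masp2, Cyp26b1 and Adipoq. The muscle omission left only library 3 of AdC3KO at 30 °C, so a lost call there cannot be tied to muscle RNA. Without AdC3KO library 1 and WT library 4 at 4 °C, Adipoq and Nnat lost their AdC3KO calls and C5ar2 its WT call. In all 8 companion lists no gene was called by edgeR between AdC3KO and WT at 4 °C or 30 °C, or in the genotype by temperature comparison, and at an unadjusted p under 0.05 no list had more than 2 genes in any of these.

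**Figure D5:**
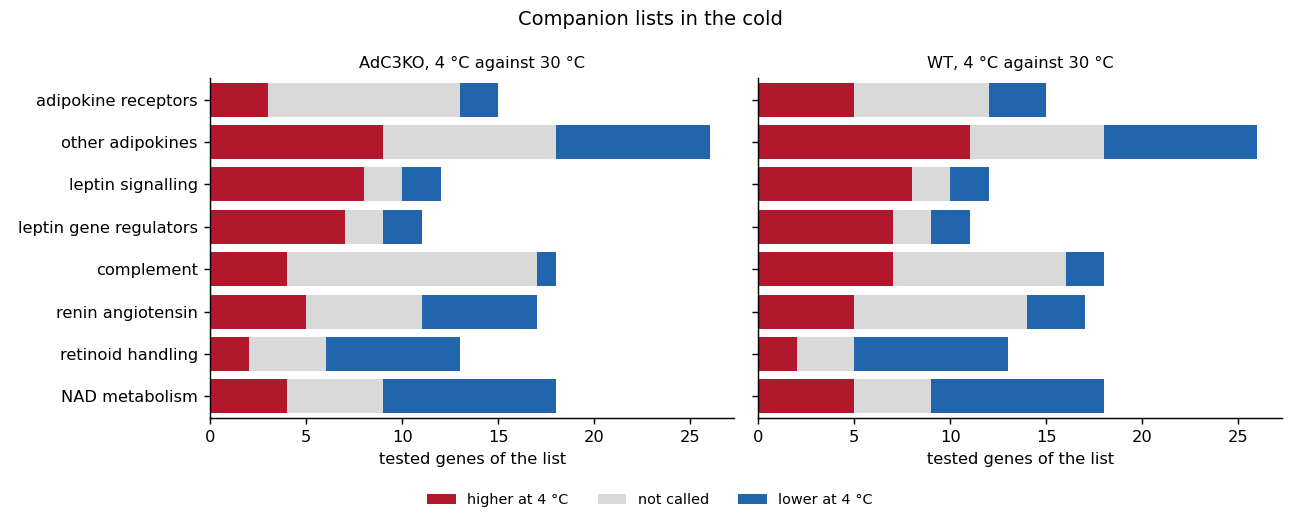
Number of tested genes called higher at 4 °C (red), not called (grey) and called lower at 4 °C (blue) in each of the 8 companion lists, in AdC3KO (left) and WT (right). Signalling genes and regulators of leptin are mostly red. Among called genes, complement is mostly red, retinoid handling and NAD metabolism are mostly blue, and the remaining lists are mixed.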

How the data were processed

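The authors used Trimmomatic to trim reads, FastQC to check them, STAR to align them to GRCm38/mm10 and HTSeq to count them per gene, per the series' design text and the submitters' processing notes. The deposited values are whole-number counts per Ensembl gene, not normalised, in 1 table of 14 libraries. Its 5 summary lines entered neither library sizes nor tests. Reads that the counting assigned to no feature were 5.95% to 8.19% of a library, and reads on more than 1 gene 5.53% to 6.03%. Not given in the sources used here are tool versions, the annotation release and the strand setting.

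Symbols came from the reference annotations by exact identifier (99.57% of 55471 identifiers). The tests used edgeR 4.0.16 (R 4.3.3): filterByExpr by group at a minimum count of 10, TMM scaling (factors 0.822 to 1.213), and 1 robust quasi-likelihood fit of the 4 group means over all 14 libraries (common biological coefficient of variation 0.20), with 5 comparisons adjusted over 15949 tested genes at 0.05. The SE is the log2 fold change over the root of F. DESeq2 1.42.0, other scalings, other filters, a replicate block and omitted libraries were tried as alternatives. The edgeR step was tested on simulated counts. Groups came from sample titles. Same-numbered libraries deviated from their group means with correlations of -0.34 to 0.05, so the numbers were not used as pairs. The members, gene lists and tests were chosen with earlier results of these data known. Named in the text are all 8 members, the 5 genes nearest to Lep and, from each companion list, the 4 called genes with the largest change in each genotype, so that a list can give more than 4. One gene that this rule names is not reported here.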

Additional observations from a re-analysis of the deposited data

Results flagged for a closer look

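A check of all 8 genes in the 2 groups of 4 libraries (16 sets of 4 values) found 2 values far from the other 3 of their group. Chance alone flags about 1 in 20 such sets, and both values came from library 3 of AdC3KO at 4 °C. Retn was highest there, at 48.14 CPM, beside 21.6 to 25.7 CPM in the other 3 libraries of the group. Apln was lowest there, at 7.38 CPM, beside 10.1 to 10.5 CPM in the other 3. The same library held 427 CPM of skeletal muscle markers, and had the highest sum of 8 fibroblast markers of its group, 1178 CPM beside 830 to 961 CPM in the other 3. It was also highest of its group for markers shared by all adipocytes (19240 CPM), brown adipocyte markers (21660 CPM) and endothelial markers (1753 CPM). The part of any of these cell types in either value was not tested. Without this library the temperature response of Apln in AdC3KO kept its direction and its call. Its adjusted p lay within the range given for the omission of single libraries.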

How the results depend on the processing

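Across 23 alternatives, 14 of which left out 1 library each, the number of members called was 3 to 5 for the temperature response in AdC3KO and 4 in WT, and 0 for both genotype comparisons and for the genotype by temperature comparison. Lep, Rbp4 and Apln were called in both genotypes under all 23. Of 915 values of single genes, 845 kept their direction and side of the threshold, 3 lost the call, 4 gained it and 63 changed sign, and none of the values that changed sign had been called. The alternative that fitted only the compared groups cannot give the genotype by temperature comparison. Values of the fit of all libraries stood in for it there, so they could only count as kept. Nampt lost its call under upper-quartile scaling, at 0.32 in AdC3KO and 0.28 in WT. It also lost it in AdC3KO without the libraries that hold muscle transcripts, at 0.34. Only library 3 of AdC3KO at 30 °C was then left. Cfd gained one under upper-quartile scaling, at -0.88 in AdC3KO and -0.79 in WT, and without AdC3KO library 3 at 4 °C, at -0.84. Agt gained one without AdC3KO library 2 at 30 °C, at 2.41. The cause was not tested. With the replicate number as a block, 4 members were called in AdC3KO, 4 in WT and 0 in the other 3 comparisons, so the replicate block changed no call of a member; it turned the log2 fold change of Retn in AdC3KO to 0.052 and that of Agt for AdC3KO against WT at 30 °C to -0.13.

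Other values that changed sign were as follows, on the log2 scale. With upper-quartile scaling Rarres2 was at -0.11 in AdC3KO and -0.072 in WT, and Retn at -0.025 in WT. Without the libraries that hold muscle transcripts, Retn was at 0.40 and Rarres2 at -0.20 for the temperature response in AdC3KO. In that setting AdC3KO against WT at 4 °C gave -0.11 for Cfd, -0.088 for Nampt and -0.20 for Agt, and AdC3KO against WT at 30 °C gave 0.050 for Lep, -0.72 for Retn, 0.23 for Apln and -1.48 for Agt. The genotype by temperature comparison then gave 0.10 for Retn and -0.24 for Nampt. Without WT library 4 and AdC3KO library 1 at 4 °C, it gave 0.086 for Cfd, 0.069 for Apln and 0.067 for Rarres2. These libraries were picked for high interferon genes, and also had the highest macrophage marker sums of their groups, 636.5 CPM (WT) and 433 CPM (AdC3KO).

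Leaving out 1 library at a time moved the temperature response of Retn between -0.44 and 0.53 in AdC3KO and between -0.075 and 0.49 in WT. For AdC3KO against WT at 4 °C the ranges were -0.33 to 0.35 for Agt, -0.0095 to 0.19 for Nampt and -0.19 to 0.033 for Apln. At 30 °C they were -0.57 to 0.066 for Lep, -0.59 to 0.36 for Retn, -1.73 to 0.54 for Agt, -0.47 to 0.017 for Rbp4, -0.038 to 0.13 for Nampt, -0.17 to 0.049 for Apln and -0.044 to 0.55 for Cfd. For the genotype by temperature comparison they were -0.35 to 0.25 for Cfd, -0.44 to 1.83 for Agt, -0.16 to 0.13 for Rarres2, -0.65 to 0.31 for Retn, -0.053 to 0.16 for Nampt, -0.18 to 0.11 for Apln and, with no change of sign, 0.067 to 0.55 for Rbp4. The adjusted p of Apln in AdC3KO ran from 1.266e-06 to 8.327e-05 over these omissions.

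With 3 or 4 libraries a group, intervals for Lep, Retn, Cfd and Agt are wide. Lep at 4 °C rests on 4 to 66 counts a library and Agt on 7 to 62, and Agt was not tested under the filter at 5 CPM.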
